A study of Mus musculus with 12 samples.

Results

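Clock output transcription factors are regulators of transcription whose genes are driven by the core circadian clock and which pass its rhythm on to other genes. The set described here holds 8 genes, Dbp, Tef, Hlf, Nfil3, Bhlhe40, Bhlhe41, Ciart and Rora, and was taken by gene symbol from a table of 16670 genes. All 8 were found, and each had at least 9 reads in every library. The genes were chosen by name with the level of Dbp under each genotype label in mature adipocytes already known, so that values of the 8 genes in that comparison are a description and carry no test.

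RNA was sequenced from fractions of the inguinal fat pad, a subcutaneous white depot of the groin, in female C57BL/6 mice. The 4 groups were the mature adipocyte fraction (MAT) labelled Kdm5c+/–, the MAT fraction labelled Kdm5c+/+ (WT), the stromal vascular fraction (SV) labelled Kdm5c+/– and the SV fraction labelled WT, with 3 libraries in each. Kdm5c is an X-linked gene for a demethylase of histone H3 lysine 4. Tissue of 2 mice went into each library. It was digested with collagenase for 1 h at 37 °C before MAT cells were taken from the floating layer and SV cells from the pellet, so that every library was made from digested tissue. The labels name no promoter, Cre driver, age, treatment or deleted part of Kdm5c, and the time of day at which tissue was taken is not given in the sources used here. Because each library is a pool, a p-value measures the spread between pools.

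The libraries held 21836878 to 29434125 reads. Kdm5c itself (chromosome X, 152233020 to 152274535, GRCm38) had 158, 190.3 and 158 CPM (reads scaled so that each library sums to 1000000) in Kdm5c+/– MAT, against 179, 174 and 180.0 CPM in WT MAT. In SV it had 194, 190.4 and 175 CPM in Kdm5c+/– libraries, against 188, 185 and 180.1 CPM in WT libraries. Its level over the whole gene did not separate the genotype labels in either fraction. Such a level does not check a deletion of part of the gene, so genotype is given here only as each library's label. The fractions matched theirs: the summed level of 8 adipocyte markers (among them Adipoq, Plin1 and Lep) was 23746 to 30326 CPM in MAT and 4260 to 7284 CPM in SV, and that of 6 progenitor markers (among them Pdgfra, Dcn and Lum) was 57.8 to 138 CPM in MAT and 5340 to 8049 CPM in SV. Most of the SV sum was Fabp4, with 3679 to 6259 CPM in the SV libraries, while Adipoq had 45.4 to 169 CPM there. Some RNA of adipocyte marker genes was thus also present in SV, but the sum does not measure how much adipocyte RNA SV held. In bulk fractions, fewer cells of a type and less RNA per cell cannot be told apart.

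In the mouse clock, CLOCK (or its relative NPAS2) and ARNTL bind E-box elements and activate Per, Cry and Nr1d genes, whose products repress that activity or the Arntl gene in turn. DBP, TEF and HLF are the PAR bZIP family, activators that bind D-box elements; NFIL3 binds the same elements as a repressor. BHLHE40 and BHLHE41 repress at E-boxes, CIART represses CLOCK and ARNTL, and RORA activates at ROR elements, where the Nr1d proteins repress. Many of these genes cycle over the day in adipose tissue, as they do in liver.

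Levels per length differed widely among the 8 genes. Per kilobase of annotated exon, MAT levels averaged over 6 libraries ran in the order Nfil3 (33.3 CPM per kb), Bhlhe40 (25.1), Tef (14.4), Rora (8.09), Dbp (5.97), Hlf (4.64), Bhlhe41 (1.93) and Ciart (0.300). The ranges of neighbours in that order overlapped, except between Bhlhe40 and Tef and between Bhlhe41 and Ciart. In SV the order was Bhlhe40 (15.1 CPM per kb), Tef (10.9), Dbp (8.01), Rora (6.97), Nfil3 (6.41), Bhlhe41 (2.85), Hlf (2.23) and Ciart (1.71), and all neighbours overlapped except Nfil3 and Bhlhe41. Nfil3 thus led the set in MAT, and in SV 4 of the 8 genes stood above it.

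**Figure D1:**
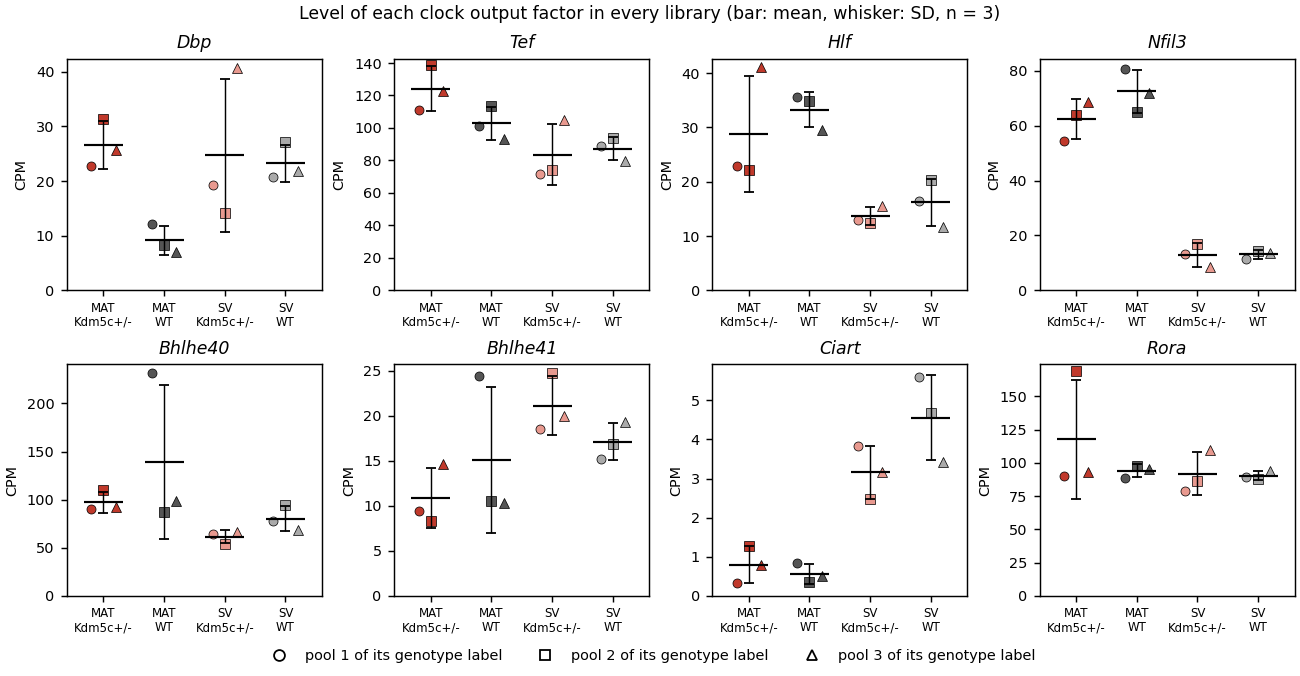
Level of each clock output factor (CPM, linear axis from 0, a separate scale for each gene) in the 12 libraries by fraction and genotype label, with bars for the mean and whiskers for the SD of 3 libraries; the marker shape gives the pool number. Dbp in the 3 Kdm5c+/– MAT libraries (22.8 to 31.3 CPM) lies above the 3 WT MAT libraries (6.95 to 12.1 CPM), and Nfil3 lies higher in all MAT than in all SV libraries.

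Among the activators of D-box elements, Dbp carried the largest difference between genotype labels in MAT. Dbp (chromosome 7, 45705088 to 45710203, plus strand, GRCm38) had 22.8, 31.3 and 25.7 CPM in Kdm5c+/– MAT, against 12.1, 8.36 and 6.95 CPM in WT MAT. The groups did not overlap, and the log2 difference, Kdm5c+/– minus WT on log2(CPM + 1), was 1.46 ± 0.20 (SE). It lay between 1.31 and 1.67 when any 1 library was left out. Of its annotated exon bases, 539 (18.0%) are shared with Sphk2 on the opposite strand, which reached 58.4 CPM. The libraries are strand-specific, but whether counting used the strand is not given in the sources used here.

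Tef (chromosome 15, 81802421 to 81826863, plus strand), the close relative of Dbp, had 111, 139 and 123 CPM in Kdm5c+/– MAT, against 101, 114 and 93.4 CPM in WT MAT. The groups overlapped, with a log2 difference of 0.27 ± 0.11. Hlf (chromosome 11, 90336536 to 90390895, minus strand) lay the other way, with 22.9, 22.2 and 41.1 CPM in Kdm5c+/– MAT, against 35.5, 34.8 and 29.5 CPM in WT MAT (log2 difference -0.26 ± 0.23). Its Kdm5c+/– library 3 was above every WT library, while the other two were below. The 3 PAR bZIP genes therefore did not share a direction in these libraries.

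Nfil3 (chromosome 13, 52967209 to 52981073, minus strand), the repressor at D-boxes, had 54.3, 64.0 and 68.8 CPM in Kdm5c+/– MAT, against 80.6, 65.1 and 72.0 CPM in WT MAT. The groups overlapped, with a log2 difference of -0.22 ± 0.12. Within a library, Dbp gave 0.421, 0.489 and 0.373 reads per Nfil3 read in Kdm5c+/– MAT, against 0.150, 0.128 and 0.0966 in WT MAT. This ratio of activator to repressor reads restates the difference of Dbp in MAT, with no scaling between libraries. In SV, where the labels overlapped, it was 1.46, 0.841 and 4.75 in Kdm5c+/– libraries and 1.82, 1.88 and 1.62 in WT libraries. The ratio was chosen after values were seen.

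**Figure D2:**
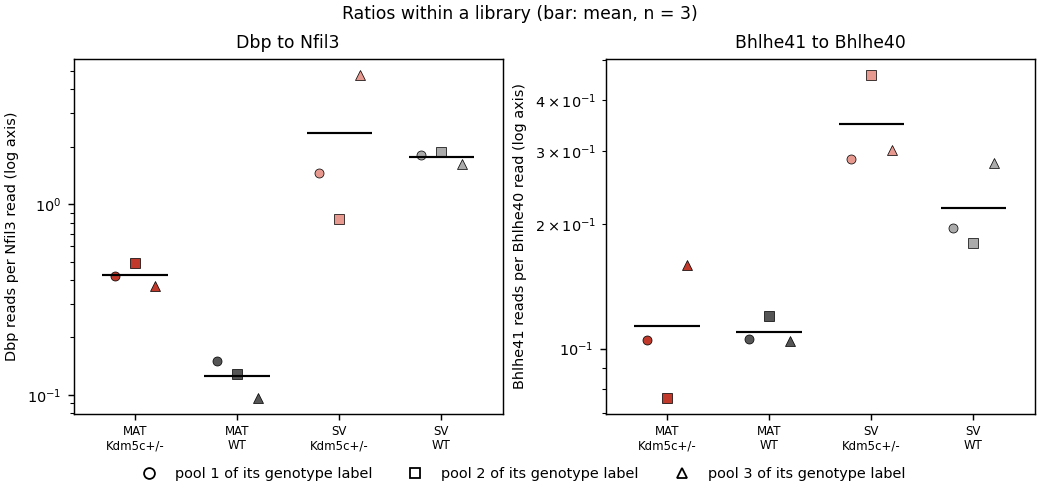
Reads of Dbp per read of Nfil3 (left) and of Bhlhe41 per read of Bhlhe40 (right) in each library, on log axes, with bars for the mean of 3 libraries. The ratio of Dbp to Nfil3 is 0.373 to 0.489 in Kdm5c+/– MAT and 0.0966 to 0.150 in WT MAT, and every SV library lies above every MAT library in both panels.

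The repressors at E-boxes were set apart by 1 WT library. Bhlhe40 (chromosome 6, 108660629 to 108666925, plus strand) had 90.1, 109.9 and 91.8 CPM in Kdm5c+/– MAT, against 232, 87.3 and 98.6 CPM in WT MAT. Bhlhe41 (chromosome 6, 145858243 to 145865558, minus strand) had 9.47, 8.37 and 14.6 CPM in Kdm5c+/– MAT, against 24.5, 10.5 and 10.3 CPM in WT MAT. WT library 1 was the highest of the 6 for both genes. The log2 differences were -0.38 ± 0.35 for Bhlhe40 and -0.37 ± 0.35 for Bhlhe41, and without that library they were 0.06 and 0.02. An antisense gene, Gm43909, overlaps 1280 (19.0%) of the exon bases of Bhlhe41.

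Ciart (chromosome 3, 95878503 to 95882251, minus strand) was near the limit of detection in MAT, with 0.330, 1.28 and 0.783 CPM (9, 32 and 20 reads) in Kdm5c+/– libraries, against 0.827, 0.340 and 0.502 CPM (20, 10 and 13 reads) in WT libraries. It did not reach 1 CPM in 3 libraries of MAT and so was not tested there, which left 7 of the 8 genes. Rora (chromosome 9, 68653786 to 69388246, plus strand) had 90.1, 169 and 93.4 CPM in Kdm5c+/– MAT, against 88.5, 97.9 and 95.3 CPM in WT MAT. Its log2 difference of 0.26 ± 0.24 rested on Kdm5c+/– library 2 and was -0.03 without it.

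Across all genes tested in MAT, limma called 0 of 11913 genes (0%) at an adjusted p under 0.05, with 1737 (14.6%) at an unadjusted p under 0.05; edgeR also called 0, and DESeq2 250 (2.1%). The groups did not overlap for 2623 genes (22%), with 9.44% higher and 12.6% lower in Kdm5c+/–. In the set, 1 of 7 genes did not overlap, Dbp, which was higher; 3 were higher and 4 lower on average. The median log2 difference of the 7 genes was -0.22, beside -0.03 for all genes tested. Since the choice of the set knew this comparison, nothing is read from these counts.

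In MAT the labels also went with the summed levels of some cell type markers. The endothelial, progenitor and adipocyte sums did not overlap between labels. The pericyte and smooth muscle sums and the macrophage sums overlapped. The 6 endothelial markers summed to 95.6 to 172 CPM in Kdm5c+/– MAT, against 218 to 274 CPM in WT MAT, and the 6 pericyte and smooth muscle markers to 48.6 to 193 CPM, against 174 to 419 CPM. Adipocyte markers summed to 29831 to 30326 CPM in Kdm5c+/– MAT, against 23746 to 26458 CPM in WT MAT. Of these sums, Fabp4 made up 12271 to 13433 CPM, against 9435 to 10067.5 CPM. The 8 adipocyte markers did not all share a direction: on average 6 were higher in Kdm5c+/– MAT and 2 lower, Lep (log2 difference -0.77) and Plin1 (-0.0046). The 6 progenitor markers summed to 57.8 to 62.9 CPM in Kdm5c+/– MAT, against 71.5 to 138 CPM in WT MAT, and the 5 macrophage markers in the table to 22.4 to 25.5 CPM, against 23.0 to 66.4 CPM. None of the 6 lymphocyte and 6 mammary epithelial markers reached the level needed for a test in MAT, and no such sum passed 2.65 CPM. The part of these shifts in the MAT values of the clock output genes was not tested.

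**Figure D3:**
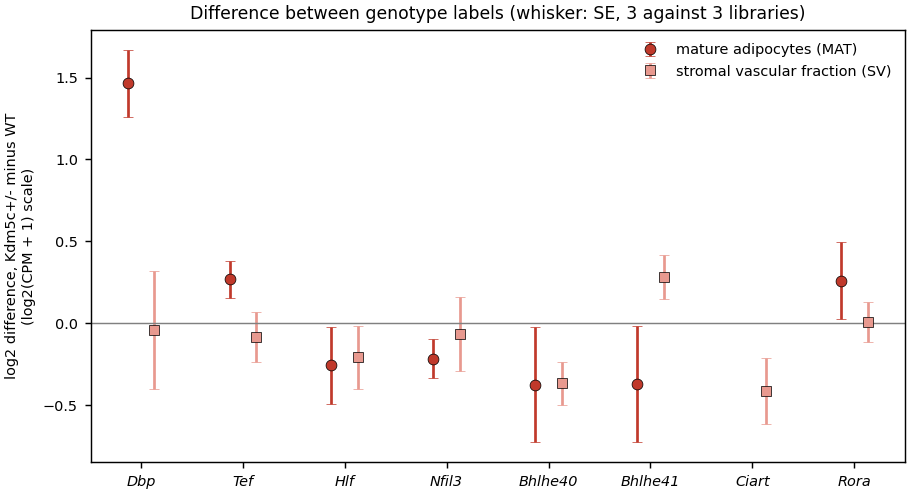
Log2 difference (Kdm5c+/– minus WT, on log2(CPM + 1)) of each clock output factor in MAT (circles) and SV (squares), with whiskers for the SE, from 3 against 3 libraries; Ciart was not tested in MAT. Dbp in MAT stands at 1.46 and in SV at -0.04, and the other values lie between -0.41 and 0.28.

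In SV, none of the 8 genes differed between the labels at an adjusted p under 0.05. Limma called 1 of 13792 genes there (0.00725%), Rps4l, and 1043 (7.56%) had an unadjusted p under 0.05; edgeR also called 1, DESeq2 called 53 (0.384%), and none of the 8 genes was among them. Dbp had 19.2, 14.2 and 40.6 CPM in Kdm5c+/– SV, against 20.7, 27.1 and 21.9 CPM in WT SV. Kdm5c+/– library 3 was the highest of the 6 and the other two were the lowest, and the log2 difference was -0.04 ± 0.36 (limma adjusted p = 0.989, 95% interval -0.90 to 0.82). That interval holds differences of either sign.

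Tef had 71.6, 74.0 and 105 CPM in Kdm5c+/– SV, against 88.7, 93.9 and 79.4 CPM in WT SV. As with Dbp, Kdm5c+/– library 3 was the highest of the 6 and the other two were the lowest. Its log2 difference was -0.08 ± 0.15 (limma adjusted p = 0.914, 95% interval -0.44 to 0.28). Nfil3 ran opposite to Dbp among the Kdm5c+/– SV libraries, with 13.1, 16.9 and 8.55 CPM, against 11.4, 14.4 and 13.5 CPM in WT SV. The log2 difference of Nfil3 was -0.06 ± 0.23 (limma adjusted p = 0.961, interval -0.60 to 0.47). Hlf differed by -0.21 ± 0.19 (limma adjusted p = 0.797) and Rora by 0.01 ± 0.12 (limma adjusted p = 0.990).

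Bhlhe40 was the 1 gene of the set whose SV groups did not overlap. It had 64.6, 54.1 and 66.2 CPM in Kdm5c+/– SV, against 77.7, 93.9 and 68.6 CPM in WT SV, a log2 difference of -0.37 ± 0.13 (limma adjusted p = 0.633, interval -0.67 to -0.06). Over all genes tested in SV, 13.5% did not overlap, 9.74% lower and 3.74% higher in Kdm5c+/–. Beside it, 19 of 21 immediate early and dissociation genes had lower means in Kdm5c+/– SV and 2 higher. Fos, Egr1, Ier3 and Nr4a1 were the 4 without overlap. Their list had a median log2 difference of -0.19, beside -0.03 for all genes tested. Limma called 0 of the 21, with 4 at an unadjusted p under 0.05, beside 7.56% of all genes. The 21 summed to 7701 to 8494 CPM, against 8312 to 10341 CPM in WT SV. In MAT, 15 of these 21 genes were higher on average and 6 lower. The part of these genes in the value of Bhlhe40 was not tested.

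Bhlhe41 went the other way in SV, with 18.5, 24.8 and 20.0 CPM in Kdm5c+/– libraries, against 15.2, 16.9 and 19.3 CPM in WT libraries. The groups overlapped by 1 library each, and the log2 difference was 0.28 ± 0.13 (limma adjusted p = 0.661, interval -0.03 to 0.60). Ciart had 3.83, 2.47 and 3.16 CPM in Kdm5c+/– SV, against 5.59, 4.67 and 3.42 CPM in WT SV. Its log2 difference was -0.41 ± 0.20 (limma adjusted p = 0.661, interval -0.88 to 0.05). In SV the adipocyte markers summed to 4260 to 7284 CPM in Kdm5c+/– libraries, against 4355 to 5491 CPM in WT libraries, most of it Fabp4. The endothelial markers summed to 5007 to 6499 CPM, against 6382 to 7000 CPM, and the macrophage markers to 1335 to 1866 CPM, against 1322 to 1384 CPM. The pericyte and smooth muscle markers summed to 2930 to 3331 CPM in Kdm5c+/– SV, against 3265 to 4176 CPM in WT SV, and the progenitor markers to 5340 to 7086 CPM, against 6529 to 8049 CPM. All 6 pericyte and smooth muscle and all 6 endothelial markers were lower on average, 2 of each without overlap. All 5 macrophage markers were higher, 2 without overlap. Over all genes tested, 9.74% were lower and 3.74% higher without overlap. The part of these markers in the SV values was not tested. The median over the 8 genes in SV was -0.07, beside -0.03 for all genes tested, with 2 higher and 6 lower.

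The difference of Dbp between labels was larger in MAT than in SV by 1.51 ± 0.44 on the log2 scale, given without a test because the MAT values are part of it. The same quantity was 0.60 ± 0.32 for Ciart, 0.35 ± 0.20 for Tef, 0.25 ± 0.29 for Rora, -0.01 ± 0.41 for Bhlhe40, -0.05 ± 0.33 for Hlf, -0.15 ± 0.28 for Nfil3 and -0.65 ± 0.41 for Bhlhe41. Over all genes, limma and edgeR called 0 of 14193 (0%) for a difference between fractions in the label difference. By limma 1267 (8.93%) had an unadjusted p under 0.05. DESeq2 called 65 (0.518%), none of them among the 8.

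Between the fractions, averaged over both labels, 7 of the 8 genes passed the test, 4 higher and 3 lower in MAT. This stands beside 87.8% of the 14193 genes tested, of which 28.7% were higher and 59.1% lower, so that a pass is the usual case here. Of the 3 lower, Ciart met the filter for the test through its SV libraries alone. With edgeR's TMM 86.1% passed (42.7% higher, 43.4% lower), with DESeq2 86.7% (40.6% and 46%), with median-of-ratios scaling 86.5% (40.3% and 46.1%) and with quantile scaling 86.1% (47.1% and 39%). The scale matters for direction: the median of all genes was -0.45 (MAT minus SV) on CPM, and -0.09, -0.01 and 0.11 with median-of-ratios, edgeR's TMM and quantile scaling. The median of the set on CPM was 0.29. Without overlap between fractions were 3 of the 8, Nfil3 and Hlf higher and Ciart lower, beside 74.6% of all genes (23.2% higher, 51.4% lower).

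Nfil3 rose most in MAT, with 54.3 to 80.6 CPM in the 6 MAT libraries and 8.55 to 16.9 CPM in the 6 SV libraries. Its log2 difference was 2.31 ± 0.14 (limma adjusted p = 1.42e-08). Hlf had 22.2 to 41.1 CPM in MAT and 11.7 to 20.3 CPM in SV, a log2 difference of 1.00 ± 0.17 (limma adjusted p = 0.000125). Tef was higher by 0.41 ± 0.10 (limma adjusted p = 0.00257) and Bhlhe40 by 0.65 ± 0.21 (limma adjusted p = 0.0107), with overlapping ranges. These 4 genes were higher in MAT and passed under each scaling tried. Bhlhe40 missed the threshold without Kdm5c+/– library 2 in both fractions (0.56, limma adjusted p = 0.0559) and stood at 0.44 without WT MAT library 1.

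Ciart was the gene with the lowest MAT level relative to SV, with 0.330 to 1.28 CPM in MAT and 2.47 to 5.59 CPM in SV. Its log2 difference of -1.53 ± 0.16 (limma adjusted p = 1.6e-06) stayed past the threshold with TMM, DESeq2 and median-of-ratios scaling, and was -0.17 with quantile scaling (adjusted p = 0.367). Bhlhe41 was lower by CPM (log2 difference -0.60 ± 0.21, limma adjusted p = 0.0165), and so was Dbp (-0.53 ± 0.22, limma adjusted p = 0.0424), but both lay close to the median shift of all genes and neither passed under the other scalings. With quantile scaling Dbp stood at 0.01, and with a block for label and replicate number on CPM its limma adjusted p was 0.0518. Rora differed by 0.18 ± 0.14 on CPM (limma adjusted p = 0.257) and passed at 0.50 to 0.68 under the other scalings. Calls for Dbp, Bhlhe41 and Rora between fractions thus rest on the choice of scaling, and no direction is given for them. The call for Ciart also rests on that choice, as it missed the threshold with quantile scaling, while its difference was negative under each scaling.

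**Figure D4:**
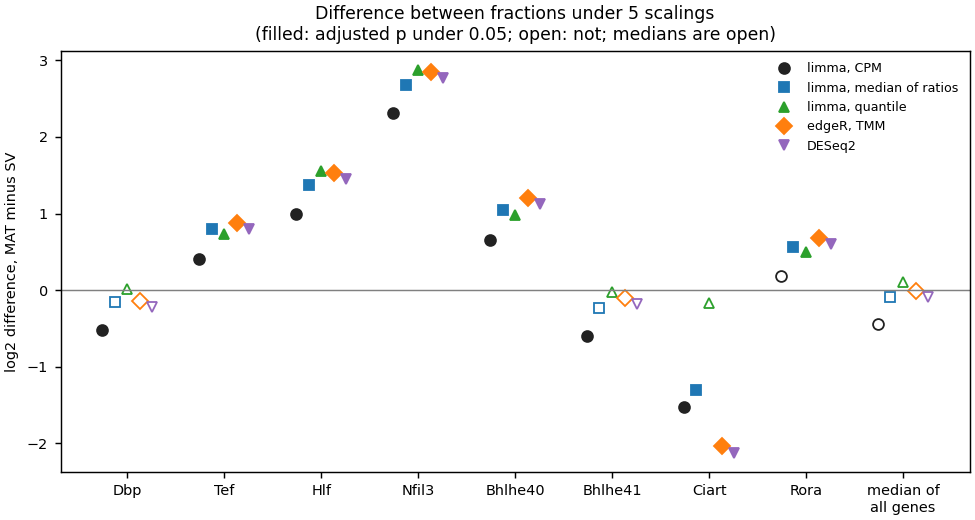
Log2 difference between fractions (MAT minus SV) of each clock output factor under 5 scalings, beside the median of all genes; filled markers passed at an adjusted p under 0.05, and the medians carry no test. Nfil3, Hlf, Bhlhe40 and Tef are filled and above 0 in each case, while Dbp and Bhlhe41 are filled on CPM alone.

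The levels of Dbp by label and fraction are given as a description. In Kdm5c+/– libraries Dbp had 22.8 to 31.3 CPM in MAT and 14.2 to 40.6 CPM in SV, with overlap. In WT libraries it had 6.95 to 12.1 CPM in MAT and 20.7 to 27.1 CPM in SV, without overlap. For Bhlhe41 and Bhlhe40 the ratio within a library separated the fractions: Bhlhe41 gave 0.105, 0.0761 and 0.159 reads per Bhlhe40 read in Kdm5c+/– MAT and 0.106, 0.120 and 0.104 in WT MAT. In SV the ratio was 0.287, 0.459 and 0.302 in Kdm5c+/– libraries and 0.196, 0.180 and 0.281 in WT libraries. Every SV library lay above every MAT library. A scaling that multiplies all genes of a library by the same factor leaves this ratio unchanged, but quantile scaling can alter it. The ratio restates the differences of these genes between fractions and adds no separate evidence.

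The core clock genes, which drive or repress the set, were measured from a list of 16, of which 15 were tested in MAT. Limma called 0 of them between labels in MAT, with 8 at an unadjusted p under 0.05, beside 14.6% of all genes. EdgeR also called 0, while DESeq2 called 3 (Cry1, Clock and Arntl), beside 2.1% of all genes. The groups did not overlap for 7 of the 15, 1 higher and 6 lower in Kdm5c+/–, beside 22% of all genes tested. Some of these genes had also stood out in earlier results of these data. The median of the list was 0.03.

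Arntl, the partner of CLOCK at E-boxes, had 18.6, 8.53 and 22.9 CPM in Kdm5c+/– MAT, against 38.2, 45.4 and 49.7 CPM in WT MAT. Its log2 difference was -1.46 (limma adjusted p = 0.273), with the 3 Kdm5c+/– libraries below all WT libraries. Cry1, a repressor of CLOCK and ARNTL, had 5.21, 2.88 and 5.37 CPM in Kdm5c+/– MAT, against 12.4, 13.2 and 11.9 CPM in WT MAT (log2 difference -1.33, limma adjusted p = 0.273). Npas2, a relative of Clock, differed by -0.84 and Clock by -0.42, each again without overlap and with an adjusted p of 0.273 by limma. In the same libraries Nr1d2, a repressor of Arntl, had 58.0, 93.0 and 61.0 CPM in Kdm5c+/– MAT, against 49.3, 44.0 and 42.2 CPM in WT MAT, and is named after its values were seen.

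Set against Arntl within a library, Dbp gave 1.22, 3.67 and 1.12 reads per Arntl read in Kdm5c+/– MAT, against 0.317, 0.184 and 0.140 in WT MAT. In SV it gave 0.334, 0.261 and 0.682 in Kdm5c+/– libraries, against 0.316, 0.372 and 0.304 in WT libraries. Both genes of this ratio already lay apart between labels in MAT, and it was chosen after values were seen, so it adds no separate evidence; in SV the labels overlapped. Kdm5c+/– MAT library 2 had the highest Dbp, the lowest Arntl and the lowest Cry1 of the 6 MAT libraries.

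That library and the SV library of the same number also had the highest summed level of 8 glucocorticoid-induced genes in their fractions. In SV this held for each of the 8 genes. In MAT it did not hold for Cdkn1a, with 60.7 CPM in Kdm5c+/– library 2 and 92.9 CPM in Kdm5c+/– library 3. The 8 genes summed to 584, 1288 and 723 CPM in Kdm5c+/– MAT, against 610, 730.0 and 760 CPM in WT MAT. In SV they summed to 1070, 2153 and 1185 CPM in Kdm5c+/– libraries, against 1017, 1104 and 1290 CPM in WT libraries. Per1, which is on both lists, had 96.9, 263 and 124 CPM in Kdm5c+/– MAT, against 89.0, 116 and 126 CPM in WT MAT. The part of these genes in the values of the clock output genes was not tested. Limma called 0 of the 8 genes between labels in either fraction, with 1 (Fkbp5) in MAT and 0 in SV at an unadjusted p under 0.05; edgeR and DESeq2 were not counted for this list. Of 11 hypoxia-induced genes, limma called 0 of 9 tested in MAT and 0 of 10 tested in SV between labels, with 0 and 1 at an unadjusted p under 0.05.

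In SV, limma, edgeR and DESeq2 called 0 of the 16 core clock genes between labels, with 1 at an unadjusted p under 0.05. Among those with the smallest p by limma were Arntl (-0.29, adjusted p = 0.617), Timeless (-0.45, adjusted p = 0.648) and Nr1d1 (-0.13, adjusted p = 0.690). Arntl had 57.5, 54.6 and 59.5 CPM in Kdm5c+/– SV, against 65.5, 72.9 and 71.9 CPM in WT SV, without overlap. For the difference between fractions in the label difference, limma gave Cry1 -1.38, Npas2 -0.80, Nr1d1 0.69 and Arntl -1.17, with 0 of 16 called and 7 at an unadjusted p under 0.05, beside 8.93% of all genes; edgeR called 0 and DESeq2 1, beside 0.518% of all genes.

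**Figure D5:**
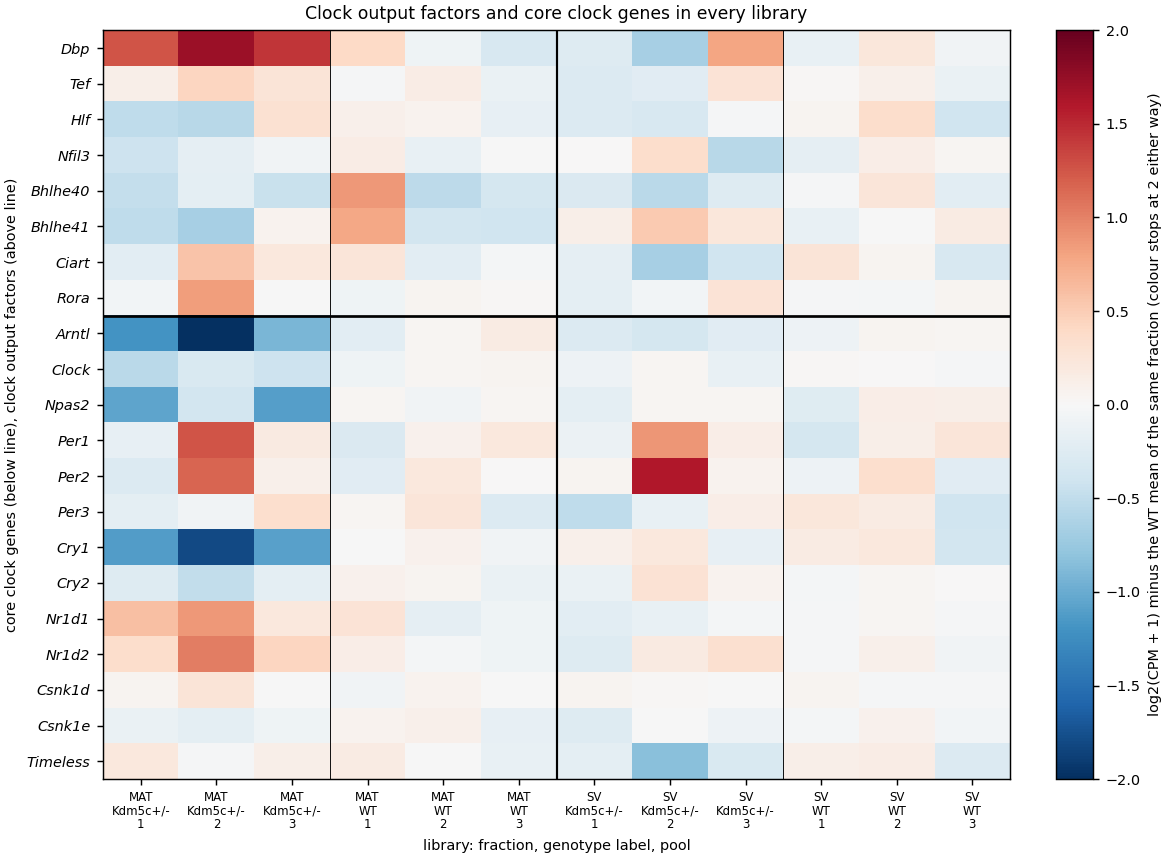
Heat map of log2(CPM + 1) minus the WT mean of the same fraction, for the 8 clock output factors (above the line) and 13 core clock genes (below it) in the 12 libraries; colour stops at 2 either way. In the 3 Kdm5c+/– MAT libraries Dbp is red while Arntl and Cry1 are blue, and in SV the colours of these 3 genes are paler.

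Between fractions, 13 of the 16 core clock genes passed, 4 higher and 9 lower in MAT, beside 87.8% of all genes. Among those higher were Per3 (log2 difference 1.47), Cry2 (1.02) and Nr1d1 (0.61). Among those lower were Timeless (-3.38), Rorb (-1.37), Arntl (-1.24), Cry1 (-1.16), the kinase gene Csnk1e (-1.14), Nr1d2 (-0.87), Npas2 (-0.70) and Csnk1d (-0.45). Csnk1d lay at the median shift of all genes. Rorb, with 0 to 0.220 CPM in MAT, met the filter for the test through SV alone. Under the other scalings 12 or 13 of the 16 passed.

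Of 5 genes reported as targets of PAR bZIP factors in mouse liver or brain, 4 were in the table and 3 were tested. All 3 rose in MAT relative to SV, beside 28.7% of all genes on CPM and 42.7% with edgeR's TMM: Por, which feeds electrons to cytochrome P450 enzymes (2.26), Alas1, the first enzyme of haem synthesis (2.48), and Pdxk, which makes active vitamin B6 (1.14). Between labels in MAT, Por had 654, 848 and 687 CPM in Kdm5c+/– libraries, against 645, 541 and 516 CPM in WT libraries, without overlap (log2 difference 0.36, limma adjusted p = 0.335). Pdxk lay the other way without overlap (-0.43, limma adjusted p = 0.378), and Alas1 overlapped (0.34, limma adjusted p = 0.519). Limma called 0 of the 3 between labels in MAT, with 1 at an unadjusted p under 0.05, and 0 in SV, with 0 at that p. Of 5 other genes that cycle in many mouse tissues (Usp2, Tsc22d3, Tspan4, Wee1 and Nampt), limma called 0 between labels in either fraction, with 0 at an unadjusted p under 0.05. EdgeR and DESeq2 were not counted for these lists either.

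Among the 8 genes themselves, after each fraction's mean was taken off, Dbp and Tef had the highest Pearson's r of all pairs over the 12 libraries (r = 0.80, Spearman's rho = 0.80), and Bhlhe40 and Ciart the highest Spearman's rho (rho = 0.83, r = 0.52). Tef and Rora had r = 0.70 and rho = 0.62, and Nfil3 ran opposite to Tef (r = -0.60, rho = -0.58) and to Dbp (r = -0.55, rho = -0.57). Hlf was not close to Dbp (r = -0.08, rho = -0.17) or to Tef (r = 0.18, rho = 0.20). These are descriptions over libraries that were taken to come from 6 pools and share a depth and a scaling across genes, and part of the spread is the label difference in MAT. Of 9308 other genes with a mean of at least 5 CPM in each fraction, those most like Dbp were Chic2 (r = 0.93) and Mrpl1 (r = 0.92), and those most like Tef were Phldb1 (r = 0.89) and Ttc17 (r = 0.86). For Hlf they were Nfatc1 and Cc2d1b (r = 0.94 each), and for Nfil3 1110004E09Rik (r = 0.84) and Cct6a (r = 0.83). For Bhlhe40 they were Zfp1 (r = 0.89) and Mtus1 (r = 0.88), for Bhlhe41 Ergic1 (r = 0.89) and Arrdc4 (r = 0.88), and for Ciart Ewsr1 (r = 0.89) and Sos1 (r = 0.85). For Rora they were Appbp2 (r = 0.94, rho = 0.70) and Lamb1 (r = 0.90, rho = 0.59). These rho values were the lowest among the genes listed, and Rora was highest in Kdm5c+/– MAT library 2 (169 CPM).

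Promoter windows are shown for the members that hold one of the elements searched, most of them E-boxes or ROR elements, which the clock proteins described above can bind; that of Hlf holds a cAMP response element, which is bound by the CREB family. RefSeq windows (GRCm38.p6) were given for 7 of the 8 genes, in 8 windows, and the 250 bases before each start were searched on both strands for the E-box CACGTG, the D-boxes TTATGTAA and TTACGTAA, the ROR elements ANTAGGTCA and ANTGGGTCA, and the cAMP response element TGACGTCA. No pair of these motifs overlapped in a window shown. Capitals mark the motif, each sequence runs 5′ to 3′ on the strand of its gene, and Bhlhe40 had no window.
Ciart, chr3:95882255-95882356, minus strand: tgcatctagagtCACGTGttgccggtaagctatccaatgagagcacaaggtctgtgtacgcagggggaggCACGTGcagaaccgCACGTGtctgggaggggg
Bhlhe41, chr6:145865556-145865585, minus strand: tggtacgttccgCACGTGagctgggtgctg
Tef, first start, chr15:81802534-81802563, plus strand: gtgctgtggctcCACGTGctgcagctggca
Tef, second start, chr15:81811264-81811293, plus strand: cacctggcccagCACGTGtctacatcgttt
Nfil3, chr13:52981040-52981063, minus strand: ggcgctcggaacTGACCTACTaac
Hlf, chr11:90390918-90390938, minus strand: cggtgcgggcccTGACGTCAc
Ciart held 3 E-boxes, 116, 58 and 44 bases before its start, and Bhlhe41 held 1. Each of the 2 Tef windows held 1 E-box, both inside the gene as GENCODE draws it. Nfil3 held a ROR element, the kind read by Rora and the Nr1d proteins, 12 bases before its RefSeq start and on the opposite strand, so that it is printed as TGACCTACT. As with Tef, that site lies inside the gene as GENCODE draws it. Hlf held a cAMP response element 9 bases before its start and no E-box. Of 32851 windows searched, 6.02% held an E-box, 1.55% a cAMP response element, 0.819% TTATGTAA, 0.113% TTACGTAA, 0.548% ANTAGGTCA and 0.664% ANTGGGTCA. The letters searched were not found in the windows of Dbp and Rora.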

How the data were processed

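RNA was sequenced in 12 libraries, 3 for each fraction and genotype label, each a pool of 2 mice. The submitters' processing notes name the aligner STAR 2.7.2a, the package edgeR 3.26.8 and the mouse build GRCm38. Which program counted reads, and over which annotation, is not given in the sources used here. Values as deposited by the authors are CPM that sum to 1000000 in each library. All values (100%) were whole multiples of 1 read within 0.05 read, and gave back 21836878 to 29434125 reads per library; 3 reads are 0.102 to 0.137 CPM. On those reads edgeR called 0 genes between labels in MAT, 1 in SV and 12219 between fractions. For the difference between fractions in the label difference edgeR called 0.

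The main test was limma 3.58.1 (R 4.3.3), fitted to log2(CPM + 1) with a robust and trended eBayes step, two-sided, with Benjamini-Hochberg adjustment over all genes tested and a threshold of 0.05. Fold changes on this scale understate the change of low genes. A gene was tested if 3 or more libraries of the fit had 1 CPM or more. Labels were compared within a fraction on its 6 libraries. Fractions, and the difference between fractions in the label difference, were tested on all 12, with 1 mean per group. The code was tested on simulated data. Alternatives were edgeR 4.0.16 with TMM, DESeq2 1.42.0, median-of-ratios and quantile scaling, a pseudocount of 0.25, no filter, a mean of at least 5 CPM, all 12 libraries in 1 fit, a replicate block, and leaving out each library. Leaving out Kdm5c+/– library 2 from both fractions was chosen after seeing the data. Replicate numbers were taken to pair the fractions of 1 label, which the labels do not state. Same-numbered MAT and SV libraries deviated together in all 6 pairs (r = 0.169 to 0.278 across genes). Same-numbered libraries of the 2 labels had r of both signs (-0.281 to 0.341), with the highest above that of every fraction pair. Differently numbered libraries were not compared, so these values do not settle which libraries share a pool.

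The 8 genes and all lists were chosen with earlier results of these data known. The genes named are the 8, Kdm5c, from each list those that passed or up to 4 with the smallest p (some of these are not reported here), and the 2 genes most like each of the 8. Gene positions and exons came from GENCODE release M21 (GRCm38), promoter windows from RefSeq. Tables were handled with Python 3.11.15, pandas 2.3.3 and numpy 2.4.6, and figures drawn with matplotlib 3.10.9.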

Additional observations from a re-analysis of the deposited data

How the results depend on the processing

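Between labels in MAT, 0 genes passed with limma, against 250 with DESeq2 (2.1% of those tested), 1 with all 12 libraries in the fit, and 0 to 3 when 1 library was left out (3 without Kdm5c+/– MAT library 3). Of the 250, 1 was among the 8, a count given as a description because the choice of the set knew this comparison. Between labels in SV, 1 gene passed with limma, against 53 with DESeq2, 4 with all 12 libraries in the fit and 0 when any 1 library was left out. For the difference between fractions in the label difference, 0 genes passed with limma, against 65 with DESeq2. When 1 library was left out, 0 to 7 passed (7 without Kdm5c+/– MAT library 3). The log2 difference of Dbp between labels in SV, -0.04, turned to 0.13 with edgeR and 0.14 with DESeq2 and ran from -0.46 to 0.27 over the libraries left out. That of Nfil3 in SV, -0.06, turned to 0.01 with edgeR (0.0056) and DESeq2 (0.0118) and ran from -0.27 to 0.18. In SV, Tef (-0.08) ran from -0.26 to 0.0166 and Rora (0.01) from -0.13 to 0.11. Dbp between fractions, -0.53, turned to 0.01 with quantile scaling (0.0094). With the replicate block, which pairs same-numbered fractions of a label, Dbp kept -0.53 between fractions but missed the threshold (limma adjusted p = 0.0518). With that block 6 of the 8 genes passed in place of 7, beside 88.1% of all genes tested. Between labels in SV, where the replicate block joins same-numbered libraries of the 2 labels, 0 genes passed with it in place of 1. The block changed no other call of the 8 genes. Over the libraries left out, 5 to 7 of the 8 genes passed between fractions, beside 12201 to 12435 of all genes tested. Dbp ranged from -0.74 to -0.32 (limma adjusted p = 0.0078 to 0.0983). Without Kdm5c+/– library 2 in both fractions, Bhlhe40 (0.56, limma adjusted p = 0.0559) and Bhlhe41 (-0.47, limma adjusted p = 0.087) missed the threshold, and without WT MAT library 1 Bhlhe40 was 0.44. The cause of these shifts was not tested. The 3 pools a group limit what can be called, and Ciart in MAT rests on 9 to 32 reads.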
